A study of Mus musculus with 12 samples.

Results

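The genes described here are 37 genes around the sterol regulatory element-binding proteins (SREBPs): targets, regulators and genes of sterol transport. They were taken by symbol from a table of 55487 mouse genes. They were picked by function, with earlier results of these data known, so counts over the list are descriptions and not tests of it. The list holds 8 enzymes of the mevalonate steps to squalene, 10 enzymes from squalene to cholesterol and 5 regulators. It also holds 5 genes of sterol transport and 9 genes of fatty acid synthesis and desaturation. Poly(A) RNA was measured in primary vascular smooth muscle cells of mice aged 4 to 6 weeks, grown to passage 4 to 6 in DMEM/F12 with 10% fetal bovine serum. There were 3 libraries in each of 4 groups: untreated wild-type cells, wild-type cells after 6 h of the mitogen PDGF-BB at 40 µg/L, and TIGAR knockout cells in the same 2 states. TIGAR is a phosphatase that limits glycolysis. The question of the design was how expression differs between the genotypes under PDGF-BB.

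SREBP-2, encoded by Srebf2, mainly drives genes of cholesterol synthesis and uptake, and SREBP-1, encoded by Srebf1, mainly those of fatty acid synthesis. Both precursors are held in the endoplasmic reticulum by SCAP and the INSIG proteins while sterols are plentiful. When sterols fall, SCAP escorts them to the Golgi, where they are cut and released to the nucleus. Excess sterol has the opposite arm: oxysterols activate the liver X receptors, which raise the efflux pumps Abca1 and Abcg1 and the ubiquitin ligase Mylip. Smooth muscle cells of the artery wall take up and release cholesterol, and growing cells need sterols and fatty acids for membranes.

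The promoters of 2 sterol synthesis genes with large responses to PDGF-BB are shown, and those of 2 liver X receptor targets that fell after it in wild-type. These opposed arms differ in known control. Each runs from 250 bases before to 50 bases after the RefSeq transcription start on GRCm38.p6, written 5′ to 3′ on the gene's strand. Capitals mark the CCAAT box, written ATTGG where it lies on the other strand, and the sterol element core TCACNCCAC. In each direction, called genes with a sterol element core in the window were taken first. The rest were taken by the largest mean change over both genotypes, among genes with a RefSeq window. Npc1, which fell more than Abca1 and Mylip, had no window. Hmgcs1 was thus picked for its core. The windows are chr13:119690101-119690400 (+) for Hmgcs1, chr13:8885356-8885655 (+) for Idi1, chr4:53159846-53160145 (-) for Abca1 and chr13:45389492-45389791 (+) for Mylip.
Hmgcs1: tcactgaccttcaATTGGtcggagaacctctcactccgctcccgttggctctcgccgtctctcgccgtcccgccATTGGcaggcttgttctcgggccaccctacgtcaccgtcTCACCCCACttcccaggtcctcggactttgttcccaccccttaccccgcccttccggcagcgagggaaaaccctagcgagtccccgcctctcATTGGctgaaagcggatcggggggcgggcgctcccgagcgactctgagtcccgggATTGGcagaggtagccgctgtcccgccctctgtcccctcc
Idi1: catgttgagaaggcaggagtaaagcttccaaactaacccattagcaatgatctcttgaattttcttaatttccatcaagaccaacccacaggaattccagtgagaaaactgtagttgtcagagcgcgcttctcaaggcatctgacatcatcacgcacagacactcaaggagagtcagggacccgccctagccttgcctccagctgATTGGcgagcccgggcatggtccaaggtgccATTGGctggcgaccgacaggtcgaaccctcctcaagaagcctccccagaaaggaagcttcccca
Abca1: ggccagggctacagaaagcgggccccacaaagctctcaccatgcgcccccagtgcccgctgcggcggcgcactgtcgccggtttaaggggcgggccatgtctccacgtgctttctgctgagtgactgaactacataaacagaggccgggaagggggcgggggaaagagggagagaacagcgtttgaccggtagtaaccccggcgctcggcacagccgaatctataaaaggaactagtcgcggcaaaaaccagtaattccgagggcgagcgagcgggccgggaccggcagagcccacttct
Mylip: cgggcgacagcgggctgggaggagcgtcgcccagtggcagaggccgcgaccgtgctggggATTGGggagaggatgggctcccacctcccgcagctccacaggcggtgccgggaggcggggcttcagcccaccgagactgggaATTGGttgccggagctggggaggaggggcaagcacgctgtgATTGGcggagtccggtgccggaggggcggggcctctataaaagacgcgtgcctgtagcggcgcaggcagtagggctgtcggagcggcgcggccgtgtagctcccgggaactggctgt

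The Hmgcs1 window held 4 CCAAT boxes and 1 sterol element core, whose first base lies 137 bases before the start. Idi1 held 2 CCAAT boxes, 45 and 14 bases before its start, Mylip held 3, and Abca1 had no match to either motif. RefSeq windows matched 28 of the 37 genes, with 36 windows in all. On either strand, CCAAT was present in 63.9% of these 36 windows and in 37.4% of all 32851 promoter windows. The sterol element core was present in 1 of the 36 windows, that of Hmgcs1, which is 2.78% against 1.24%. For the GC box GGGCGG the shares were 77.8% against 35.7%, and for the E-box CACGTG 19.4% against 7.15%. Among windows of the genes kept for testing, the GC box share was 62.0% and the E-box share 9.62%. The 4 motifs were searched independently of each other. A match is a description of letters only, and a missing match says only that these letters are not in the window.

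Library depth ran from 14953807 to 21698488 reads, and values are reads of a gene per 1000000 reads counted (CPM). All 37 genes passed the filter of at least 1 CPM in at least 3 of 12 libraries, and the fewest reads behind any of their values was 18. At the lowest depth 1 read equals 0.0669 CPM. Nothing in the labels ties the 3 libraries of a group to separate mice or dishes, and the spread behind each p-value may be technical. Tigar itself did not fall in the libraries labelled knockout: it was at 6.99, 8.61 and 6.91 CPM in wild-type untreated and at 10.0, 12.2 and 11.3 in labelled knockout untreated. With PDGF-BB it was at 11.5, 11.5 and 12.6 CPM in wild-type and at 14.6, 14.7 and 16.2 in labelled knockout. The difference was 0.52 ± 0.11 on the log2 scale untreated (SE, adjusted p = 0.00209, limma-trend with Benjamini-Hochberg adjustment) and 0.33 with PDGF-BB (adjusted p = 0.0292), in both cases higher in labelled knockout. The labels do not describe the allele, whether these reads come from outside a deleted part was not tested, and the group is called labelled knockout throughout.

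Of the 7 smooth muscle markers, Acta2 reached 2863 CPM, while Tagln stayed between 2.98 and 7.12 CPM and Des between 0.356 and 0.953. Summed CPM of all 7 ran from 1806 to 2292 in wild-type untreated, from 2256 to 3463 in labelled knockout untreated, from 1469.5 to 1958 in wild-type with PDGF-BB and from 3145 to 3227 in labelled knockout with PDGF-BB. Of 5 adipocyte markers, Lep was at 0 in every library, Adipoq, Plin1 and Cidec stayed at or below 0.189 CPM, and Fabp4 was between 2.06 and 8.36 CPM. Of the others, 4 of 5 hepatocyte markers were at 0 throughout. Endothelial markers and most macrophage markers moved with the genotype label. Their values, and those of fibroblast markers, stand beside the genotype comparisons.

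A pair of libraries stood apart from their group mates in these genes. Replicate 1 of labelled knockout untreated was the lowest of its group for 26 of 37 genes, and for 14 of the 18 sterol synthesis enzymes. Its Idi1 level was 7.46 CPM against 17.7 and 17.1 in its mates, and the median difference from the mates was -0.24 on the log2(CPM + 1) scale over the 37 genes and 0.03 over all genes kept. The treated wild-type library with number 1 differed from its mates by exon length: the median was -0.42 for the 10 genes with at least 5000 exonic bases and 0.27 for the 14 genes with fewer than 3000. Its Fasn level was 176 CPM against 327 and 355, and its Abca1 level 160.1 CPM against 259.8 and 288. The rank correlation of that difference with the deposited exon length was -0.77 over the 37 genes, or -0.66 with the exonic bases of the reference annotation, and -0.58 over all genes kept, all from the same library. Counts of called genes are therefore also given without both libraries, an alternative added after the data had been seen. The labelled knockout library was set apart by its values in these same 37 genes, so results without it are shifted by that choice. Shares of all genes tested are those of the main fit. Counts under alternatives are thus not set against genes at large, and leaving out a library also changes the shared spread.

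**Figure D1:**
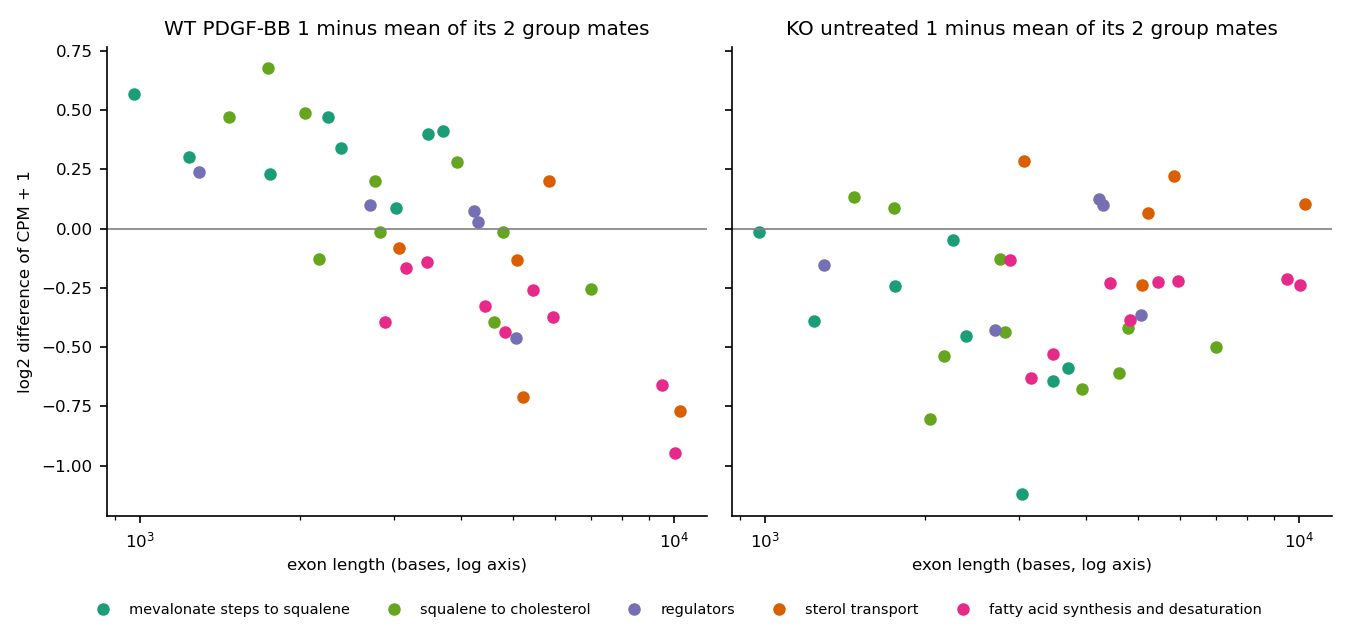
Difference of 1 library from the mean of its 2 group mates (vertical axis, log2 difference of CPM + 1) against exon length in bases (horizontal log axis), with 1 point per gene, coloured by role, n = 37. Treated wild-type replicate 1 (left) sits above its mates for short genes and below them for long genes, and replicate 1 of labelled knockout untreated (right) sits below its mates for most sterol synthesis enzymes at all lengths.

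Levels per kb of exon differed widely between the genes. In wild-type untreated, the stearoyl-CoA desaturase Scd2 had the highest level, 80.0 CPM per kb, with the exon lengths of the deposited table. The order below it depended on the lengths used: Insig2 was at 50.2 CPM per kb with the deposited length of 1292 bases and at 18.7 with the 3473 exonic bases of the reference annotation. The squalene epoxidase Sqle was at 36.1 and 17.9 CPM per kb in the same order, and Abca1 at 35.2 and 34.9. With both lengths the lowest levels were those of Abcg1, at 0.336 and 0.269 CPM per kb, and of the farnesyl diphosphate synthase Fdps, at 1.01 and 0.297. Scd2 exceeded its paralog Scd1 in every library, 5.37 to 7.13 times per kb. These paralogs share a stretch of 623 bases at 95.5% identity, so reads from it can be assigned to either. With PDGF-BB, Scd2 reached 164 CPM per kb in wild-type and 230.0 in labelled knockout.

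PDGF-BB was followed by higher levels of most sterol and fatty acid synthesis genes in both genotypes, while the lysosomal exporter Npc1 fell in both. Falls of the efflux pump Abca1 and the ligase Mylip were called in wild-type only, but no difference between the responses of the genotypes was called for either. In wild-type, 26 of 37 genes rose and 4 fell by limma-trend with Benjamini-Hochberg adjustment at 0.05, against 25.0% and 34.4% of all 14202 genes tested. In labelled knockout, 29 of 37 rose and 3 fell, against 17.6% and 24.8% of all genes. The median log2 change of CPM + 1 was 0.68 in wild-type and 0.93 in labelled knockout, where all genes tested had medians of -0.08 and -0.07. Summed CPM of the 37 genes went from 2298 ± 18.3 (SD, n = 3) to 3550 ± 267 in wild-type and from 2567 ± 198 to 4629 ± 22.1 in labelled knockout. Without both libraries that stand apart, 26 rose and 6 fell in wild-type, and 29 rose and 4 fell in labelled knockout. Leaving out treated wild-type replicate 1 alone brought the count that fell in labelled knockout to 5. In bulk RNA, fewer cells of a type and less RNA per cell cannot be told apart.

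**Figure D2:**
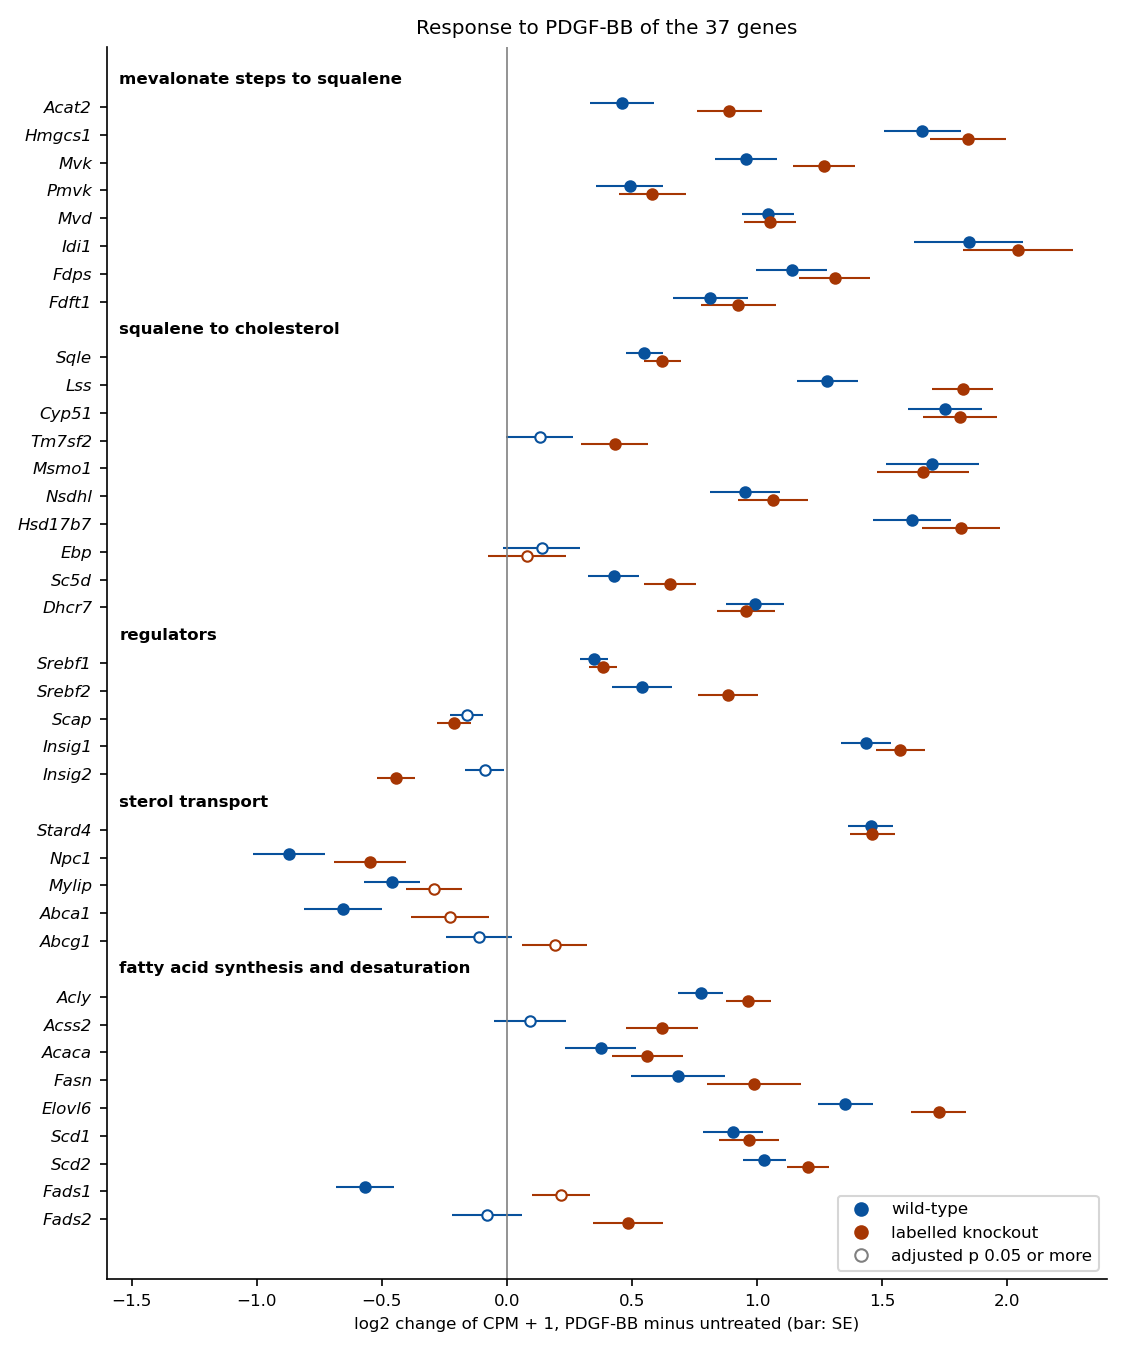
Change with PDGF-BB of each of the 37 genes, in 5 role groups, as log2 difference of CPM + 1 (horizontal axis) with the standard error of the fit as bar, wild-type in blue and labelled knockout in brown, n = 3 libraries per group. Filled points have an adjusted p under 0.05: all 8 mevalonate genes lie to the right of 0 in both genotypes, while Npc1 lies to the left in both.

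All 8 enzymes of the mevalonate steps to squalene rose in both genotypes, from the acetyl-CoA acetyltransferase Acat2 to the squalene synthase Fdft1. Of all genes tested, 25.0% rose in wild-type and 17.6% in labelled knockout. The summed level of the 8 enzymes went from 133 ± 3.96 to 318 ± 49.1 CPM (SD, n = 3) in wild-type and from 149 ± 29.9 to 409.7 ± 9.16 in labelled knockout. The isopentenyl diphosphate isomerase Idi1 was at 9.70, 10.1 and 11.0 CPM in wild-type untreated and at 41.1, 40.1 and 37.2 with PDGF-BB. In labelled knockout it was at 7.46, 17.7 and 17.1 CPM untreated and at 54.7, 58.7 and 59.5 with PDGF-BB. Treated and untreated libraries did not overlap in either genotype, and the log2 changes were 1.85 ± 0.22 (SE, adjusted p = 1.07e-05) and 2.04 ± 0.22 (adjusted p = 9.74e-06).

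Hmgcs1, the cytosolic HMG-CoA synthase, was at 40.7, 41.9 and 37.4 CPM in wild-type untreated and at 155, 121 and 113 with PDGF-BB. Labelled knockout libraries went from 35.9, 55.6 and 57.7 to 183, 169.7 and 179.7 CPM. These ranges were again apart, with log2 changes of 1.66 ± 0.15 (SE, adjusted p = 1.02e-06) and 1.84 ± 0.15 (adjusted p = 9.69e-07). Fdps, which makes farnesyl diphosphate, was scarce: 1.13, 1.48 and 1.13 CPM in wild-type untreated and 4.68, 3.59 and 3.62 with PDGF-BB. In labelled knockout Fdps went from 1.31, 1.94 and 2.11 to 6.22, 5.74 and 5.62 CPM. Its log2 change of CPM + 1 was 1.14 in wild-type and 1.31 in labelled knockout, although the ratios of mean CPM were 3.17 and 3.28, since the added 1 shrinks changes of low genes. On recovered reads edgeR put the wild-type change at 1.73 and DESeq2 at 1.72.

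The mevalonate decarboxylase Mvd rose by 1.04 and 1.05 on the log2 scale in wild-type and labelled knockout, and the mevalonate kinase Mvk by 0.96 and 1.27. Fdft1 rose by 0.81 and 0.93. It shares 18.3% of its exonic bases with Ctsb on the other strand, a gene of up to 864 CPM, and the strand setting of the counting is not given in the sources used here. The phosphomevalonate kinase Pmvk rose by 0.49 and 0.58, and Acat2 by 0.46 and 0.89. Acat2 is 97.7% identical to Acat3 over 1477 bases, so its reads are uncertain. Without treated wild-type replicate 1 the wild-type changes of both were 0.30, with the calls kept.

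Among the 10 enzymes from squalene to cholesterol, 8 rose in wild-type and 9 in labelled knockout, and none fell. Of all genes tested, 25.0% rose and 34.4% fell in wild-type, and 17.6% and 24.8% in labelled knockout. Cyp51, the lanosterol demethylase, was at 32.2, 33.2 and 31.1 CPM in wild-type untreated and at 126, 108 and 99.4 with PDGF-BB. In labelled knockout Cyp51 was at 33.0, 54.6 and 52.3 CPM untreated and at 160.3, 160.1 and 167 with PDGF-BB. The groups did not overlap, and the log2 changes were 1.75 ± 0.15 (SE, adjusted p = 4.75e-07) and 1.81 ± 0.15 (adjusted p = 8.51e-07). Msmo1, the methylsterol monooxygenase, went from 32.9, 34.6 and 30.2 to 136, 93.8 and 99.1 CPM in wild-type. Its labelled knockout values were 29.8, 50.8 and 54.5 untreated and 144, 135 and 142 with PDGF-BB, which gave log2 changes of 1.70 and 1.67.

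Hsd17b7, the 3-keto-sterol reductase, was at 20.4, 19.0 and 16.7 CPM in wild-type untreated and at 49.3, 61.7 and 68.8 with PDGF-BB. In labelled knockout the same gene went from 16.8, 26.8 and 25.4 to 82.0, 78.8 and 85.1 CPM, and treated libraries were above untreated ones in both genotypes, with log2 changes of 1.62 and 1.82. The lanosterol synthase Lss, which closes the ring system, went from 26.0, 25.8 and 25.3 to 56.7, 65.8 and 69.7 CPM in wild-type. The labelled knockout libraries rose from 16.5, 23.7 and 23.7 to 78.5, 72.2 and 80.4 CPM. The log2 changes of Lss were 1.28 and 1.82, apart in size between genotypes but with an adjusted p of 0.101 for the difference itself.

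Sqle, which makes the epoxide that Lss cyclizes, rose by 0.55 in wild-type and 0.62 in labelled knockout on the log2 scale. Nsdhl rose by 0.95 and 1.06, the 7-dehydrocholesterol reductase Dhcr7 by 0.99 and 0.96, and the lathosterol desaturase Sc5d by 0.43 and 0.65. The isomerase Ebp was not called in either genotype: its mean was 14.1 ± 1.41 CPM (SD, n = 3) in wild-type untreated, 16.0 ± 4.90 with PDGF-BB, 15.2 ± 1.17 in labelled knockout untreated and 16.1 ± 0.450 with PDGF-BB. Tm7sf2, a sterol reductase that shares 12.1% of its exonic bases with Vps51, was not called in wild-type, at 9.78 ± 0.361 and 11.0 ± 2.44 CPM. In labelled knockout Tm7sf2 rose by 0.43 (adjusted p = 0.0193), from 6.91 ± 0.833 to 9.63 ± 0.365 CPM. That call was lost without replicate 2 of labelled knockout untreated (adjusted p = 0.0844) and without treated labelled knockout replicate 1 or 2 (0.0536 and 0.0611), within a range of 0.000162 to 0.0844 over 25 alternatives.

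**Figure D3:**
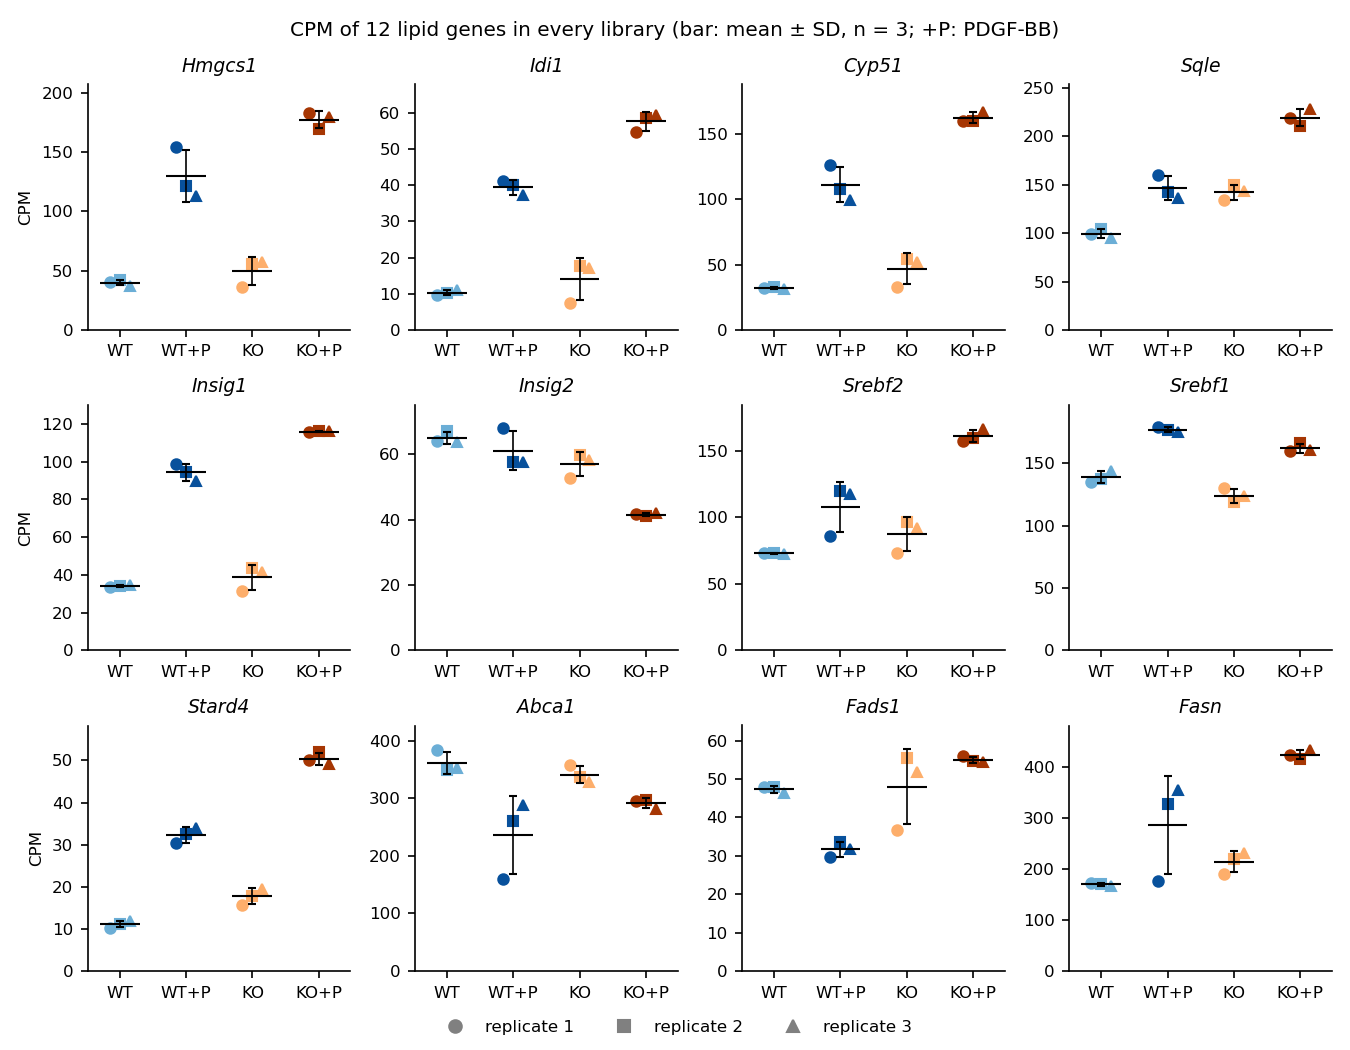
CPM (vertical axis, from 0) of 12 of the genes in every library of wild-type (WT) and labelled knockout (KO), untreated and with PDGF-BB (+P), as points, with mean and SD over 3 libraries as bars. Insig1 is at 116 CPM in all 3 treated labelled knockout libraries, against 31.3 to 43.5 untreated, while Insig2 is lowest there, between 41.1 and 41.9 CPM.

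The regulators did not move as one. Srebf2 was at 73.4, 73.0 and 72.3 CPM in wild-type untreated and at 85.9, 120.0 and 117 with PDGF-BB. In labelled knockout Srebf2 was at 73.2, 96.7 and 92.3 CPM untreated and at 157, 159.9 and 166 with PDGF-BB. It rose by 0.54 ± 0.12 (SE, adjusted p = 0.00172) and 0.88 ± 0.12 (adjusted p = 7.23e-05). Srebf1 was at 135, 138 and 144 CPM in wild-type untreated and at 179, 177 and 175 with PDGF-BB. Srebf1 in labelled knockout went from 130.1, 119 and 124 to 159.9, 166 and 161 CPM, and the rises were 0.35 and 0.38, with no overlap of treated and untreated libraries. The ratio of Srebf1 to Srebf2 per kb was 2.17 to 2.36 in wild-type untreated and 1.14 to 1.23 in labelled knockout with PDGF-BB, the lowest of the 4 groups.

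The INSIG genes parted. Insig1, itself an SREBP target whose product retains SCAP, was at 33.8, 34.2 and 34.6 CPM in wild-type untreated and at 98.8, 94.6 and 89.6 with PDGF-BB. In labelled knockout Insig1 was at 31.3, 43.5 and 41.3 CPM untreated, and each treated library was at 116. The rises were 1.44 ± 0.10 (SE, adjusted p = 7.22e-08) and 1.57 ± 0.10 (adjusted p = 1.02e-07). Insig2, its paralog and not a classical SREBP target, was at 63.9, 67.1 and 63.7 CPM in wild-type untreated and at 68.1, 57.6 and 57.6 with PDGF-BB, and was not called. In labelled knockout it went from 52.9, 59.9 and 58.1 to 41.7, 41.1 and 41.9 CPM, with no overlap, and fell by 0.44 ± 0.08 on the log2 scale (adjusted p = 0.000479).

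The ratio of Insig1 to Insig2 per kb was thus 0.244 to 0.260 in wild-type untreated, 0.695 to 0.787 in wild-type with PDGF-BB, 0.283 to 0.348 in labelled knockout untreated and 1.33 to 1.35 in labelled knockout with PDGF-BB. These ratios use the deposited lengths. With the exonic bases of the reference annotation they were 0.572 to 0.610, 1.63 to 1.84, 0.664 to 0.816 and 3.11 to 3.17 in the same order, so which of the genes was higher in wild-type with PDGF-BB depended on the length used, while the order of the groups did not. Scap, the escort, fell by 0.21 in labelled knockout (adjusted p = 0.0221), from 82.6 ± 6.19 to 71.1 ± 1.64 CPM (SD, n = 3). Its call was lost under TMM scaling (adjusted p = 0.0625), in edgeR (0.0601) and without replicate 1 or 3 of either labelled knockout group (0.0575 to 0.0847), in a range of 0.00124 to 0.0847 over 25 alternatives. In wild-type Scap was at 82.7 ± 2.21 and 73.9 ± 2.96 CPM and was not called.

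Genes of sterol transport moved in both directions. Stard4, a carrier that moves cholesterol between membranes, was at 10.3, 11.3 and 11.9 CPM in wild-type untreated and at 30.3, 32.6 and 33.9 with PDGF-BB. In labelled knockout it was at 15.7, 17.9 and 19.5 CPM untreated and between 49.0 and 51.9 with PDGF-BB. Treated libraries were all above untreated ones, and the log2 changes were 1.45 ± 0.09 (SE, adjusted p = 3.17e-08) and 1.46 ± 0.09 (adjusted p = 9.95e-08). Npc1, which exports cholesterol from lysosomes, was at 80.1, 81.5 and 80.4 CPM in wild-type untreated and at 31.2, 50.2 and 53.1 with PDGF-BB. In labelled knockout Npc1 went from 95.1, 88.3 and 93.5 to 62.3, 65.1 and 61.2 CPM. The log2 changes were -0.87 ± 0.14 (SE, adjusted p = 0.000172) and -0.55 ± 0.14 (adjusted p = 0.0076), and no treated library reached the untreated range. Npc1 shares 5.31% of its exonic bases with genes on the other strand of up to 40.7 CPM, and Cyp51 shares 3.76% with Akap9, of up to 114 CPM.

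The efflux pump Abca1 was at 383, 349 and 352 CPM in wild-type untreated and at 160.1, 259.8 and 288 with PDGF-BB, the lowest value being the library with the exon length trend. Abca1 changed by -0.66 (adjusted p = 0.00265), and by -0.40 without that library, with the call kept. In labelled knockout Abca1 was at 358, 337 and 329 CPM untreated and at 295, 297 and 281 with PDGF-BB. These ranges did not overlap, but the change was not called (adjusted p = 0.26). Mylip, the ligase that marks lipoprotein receptors for degradation, was at 38.8, 30.4 and 40.5 CPM in wild-type untreated and at 25.1, 28.7 and 24.7 with PDGF-BB, and changed by -0.46 (adjusted p = 0.00331). In labelled knockout its means were 34.7 ± 4.24 and 28.1 ± 0.427 CPM (SD, n = 3; adjusted p = 0.0524). The interaction term of limma-trend was not called for Abca1 (adjusted p = 0.309) or Mylip (adjusted p = 0.599). Abcg1, the partner pump, was scarce and not called, at 2.08, 1.78 and 2.03 CPM in wild-type untreated and 2.00, 1.46 and 1.78 with PDGF-BB. In labelled knockout Abcg1 was at 3.60, 2.67 and 3.23 CPM untreated and 3.87, 3.26 and 4.12 with PDGF-BB.

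In fatty acid synthesis and desaturation, 6 of 9 genes rose and 1 fell in wild-type, and 8 rose and none fell in labelled knockout. The shares of all genes tested were 25.0% and 34.4% in wild-type and 17.6% and 24.8% in labelled knockout. Elovl6, which lengthens palmitate, was at 18.0, 17.6 and 18.6 CPM in wild-type untreated and at 40.0, 50.05 and 54.4 with PDGF-BB. Elovl6 in labelled knockout went from 13.6, 14.9 and 17.2 to 55.0, 50.5 and 52.1 CPM. The groups did not overlap, and the log2 changes were 1.35 and 1.73. Scd2 was at 441, 428 and 441 CPM in wild-type untreated and at 791, 942 and 954 with PDGF-BB. In labelled knockout Scd2 went from 490.0, 579 and 567 to 1241, 1271 and 1253 CPM, and its changes were 1.03 and 1.20.

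Scd1 was at 65.4, 62.7 and 63.4 CPM in wild-type untreated and at 98.3, 129.9 and 137 with PDGF-BB, and rose by 0.91. In labelled knockout Scd1 rose by 0.97, from 86.3 ± 13.0 to 169 ± 3.81 CPM (SD, n = 3). Acly, the citrate lyase that supplies cytosolic acetyl-CoA, rose by 0.77 and 0.97, to 247 ± 30.9 and 260.0 ± 2.71 CPM. Fasn, the fatty acid synthase, was at 172, 170.1 and 167 CPM in wild-type untreated and at 176, 327 and 355 with PDGF-BB. In labelled knockout it went from 191, 219 and 232 to 424, 416 and 433 CPM. It rose by 0.68 (adjusted p = 0.00669) in wild-type, where the low treated library lay just above the untreated range, and by 1.00 without that library. The labelled knockout rise was 0.99 (adjusted p = 0.000914).

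The acetyl-CoA carboxylase Acaca rose by 0.38 in wild-type (adjusted p = 0.0343) and 0.56 in labelled knockout (adjusted p = 0.00579). Its wild-type libraries overlapped, at 57.7, 52.8 and 55.5 CPM untreated and 52.8, 80.9 and 87.4 with PDGF-BB. Without treated wild-type replicate 1 the change was 0.60. The wild-type call was lost without treated wild-type replicate 2 or 3 (changes of 0.29 and 0.24, adjusted p = 0.125 and 0.138) and without any 1 of the wild-type untreated libraries (0.0564 to 0.0962). It was also lost with no filter, quantile normalization, no variance trend and the compared groups alone, so that 16 of 25 alternatives kept it (adjusted p from 9.52e-12 to 0.138). Acaca has a copy, Gm5182, that is 99.2% identical over 6118 bases and was listed at up to 13.1 CPM. Acss2, which activates acetate, was not called in wild-type, at 6.93 ± 0.954 and 7.48 ± 1.34 CPM (SD, n = 3), and rose by 0.62 in labelled knockout, from 5.04 ± 0.837 to 8.24 ± 0.518 CPM (adjusted p = 0.00371). It shares 9.12% of its exonic bases with genes on the other strand of up to 52.0 CPM.

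The desaturases of polyunsaturated fatty acids, neighbours on chromosome 19 (Fads1 at chr19:10182888-10196877 and Fads2 at chr19:10062765-10101746, GRCm38.p6), were not among the genes that rose in wild-type. Fads1, the delta-5 desaturase, was at 47.8, 48.0 and 46.3 CPM in wild-type untreated and at 29.6, 33.6 and 31.8 with PDGF-BB. In labelled knockout Fads1 was at 36.8, 55.4 and 51.8 CPM untreated and at 55.9, 54.8 and 54.5 with PDGF-BB. It fell in wild-type, with a log2 change of -0.57 ± 0.12 (SE, adjusted p = 0.000992) and no overlap, and was not called in labelled knockout, where the ranges overlapped. Fads2, the delta-6 desaturase, was at 24.6, 28.9 and 27.7 CPM in wild-type untreated and at 23.6, 27.8 and 25.4 with PDGF-BB, and was not called. In labelled knockout Fads2 went from 27.4, 42.7 and 43.2 to 54.4, 51.4 and 50.7 CPM and rose by 0.48 (adjusted p = 0.0138). That rise was 0.27 without replicate 1 of labelled knockout untreated and lost its call without treated labelled knockout replicate 1 (adjusted p = 0.0506), with a range of 0.000699 to 0.0506 over 25 alternatives.

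**Figure D4:**
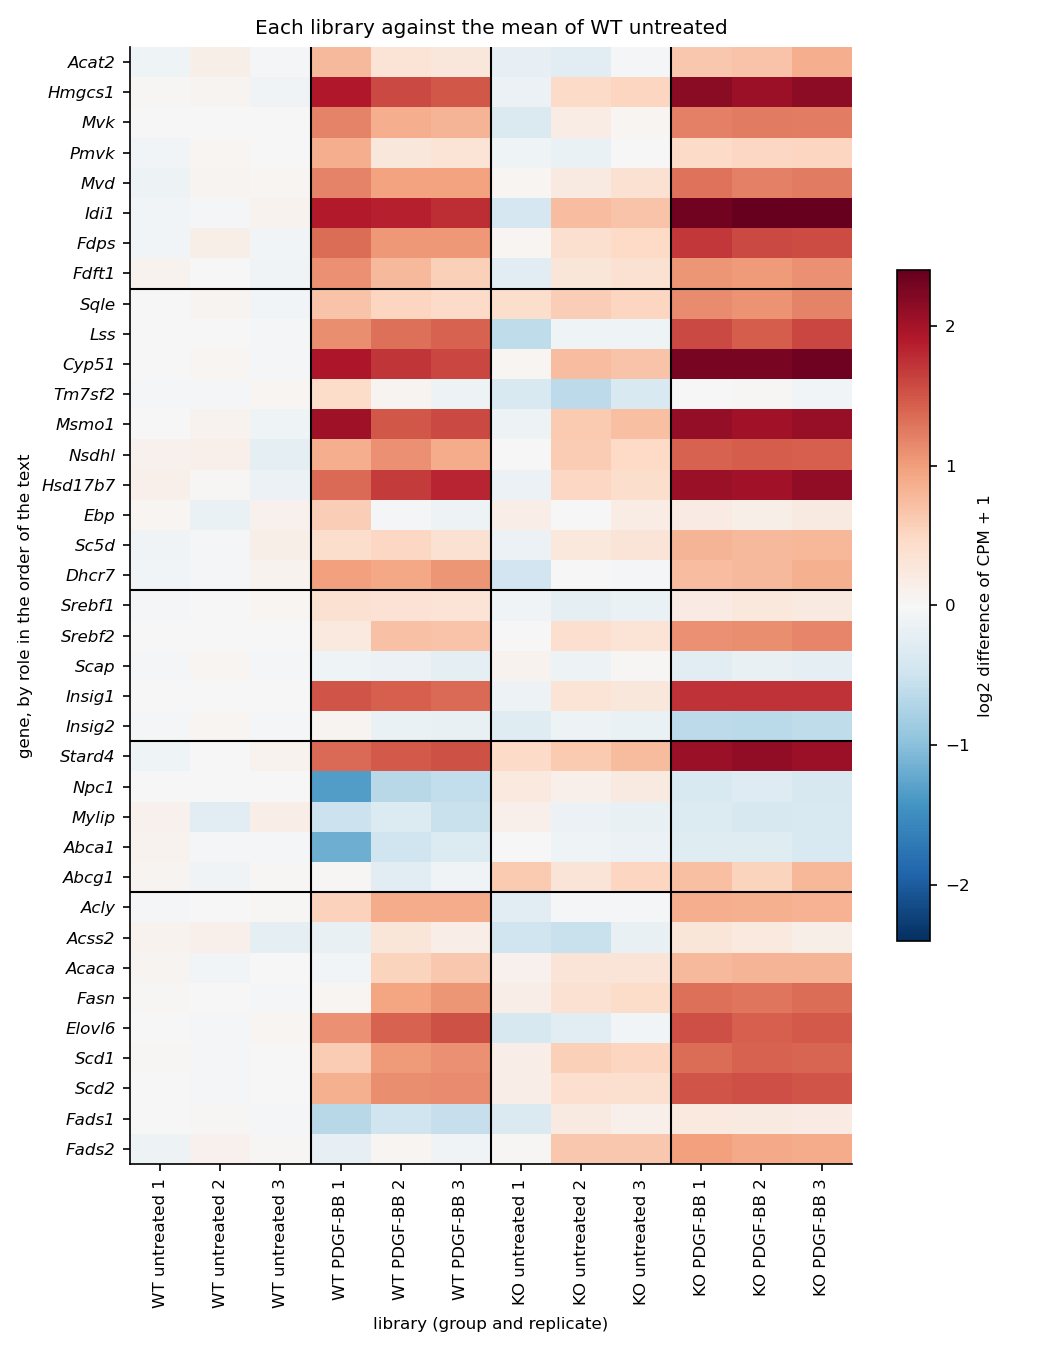
Each library's log2 difference of CPM + 1 from the mean of wild-type untreated (colour, red higher and blue lower) for the 37 genes (vertical axis, in the 5 role groups) in 12 libraries (horizontal axis), WT being wild-type and KO labelled knockout. Both treated groups are red for most sterol synthesis genes, and replicate 1 of labelled knockout untreated is bluer than its mates.

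Untreated, the genotype labels differed in few of the 37 genes. Levels were higher in labelled knockout for 7 genes and lower for 2, against 9.15% and 24.8% of all genes tested, and the median difference was 0.16 where that of all genes was -0.13. Under TMM scaling 12 were higher and none lower, with a median of 0.29 beside -0.01 for all genes, and the higher share of all calls went from 27.0% to 48.7%. The median was 0.29 without replicate 1 of labelled knockout untreated and 0.11 without replicate 3. The count also turned on single libraries. Without replicate 1 of labelled knockout untreated 16 genes were higher, without replicate 2 it was 3, without replicate 3 it was 4, and without treated wild-type replicate 1, which enters only through the shared spread, it was 13. The count of lower genes ran from 0, without replicate 2 of labelled knockout untreated, to 6, without treated wild-type replicate 1, and was 1 without any 1 of the wild-type untreated or labelled knockout PDGF-BB libraries. Without both libraries that stand apart, 22 were higher and 5 lower. Replicate 1 of labelled knockout untreated was set apart by low values of these same genes, so higher levels without it follow from that choice. The shares of all genes without these libraries are not given here, so the larger counts cannot be called particular to the 37 genes.

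Sqle and Stard4 were called in all 25 alternatives. Sqle, at 98.7, 104 and 95.4 CPM in wild-type and 134, 149 and 143 in labelled knockout, differed by 0.51 ± 0.07 on the log2 scale (SE, adjusted p = 0.000128). Stard4, at 10.3, 11.3 and 11.9 CPM against 15.7, 17.9 and 19.5, differed by 0.62 ± 0.09 (adjusted p = 0.000164). Neither pair of groups overlapped. Abcg1 was higher by 0.49 (adjusted p = 0.0112), at 1.96 ± 0.158 against 3.17 ± 0.465 CPM (SD, n = 3), with 0.83 in edgeR and 0.84 in DESeq2 on recovered reads. It lost its call only with no filter (adjusted p = 0.0606, in a range of 0.00194 to 0.0606 over 24 alternatives).

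The other differences between untreated cells were less settled. Scd2 was higher by 0.32 (adjusted p = 0.0108) but not without replicate 2 of labelled knockout untreated (0.056, in a range of 1.6e-09 to 0.056). Scd1 was higher by 0.42 (adjusted p = 0.0163), and was not called without replicate 2 of wild-type untreated (0.0525) or replicate 2 or 3 of labelled knockout untreated (0.0819 and 0.0696, in a range of 4.61e-10 to 0.0819). Cyp51 was higher by 0.49 (adjusted p = 0.0202), with overlapping libraries. Its call was lost without replicate 1 or 3 of wild-type untreated (0.0548 and 0.0663) or replicate 2 or 3 of labelled knockout untreated (0.104 and 0.0943, in a range of 4.28e-11 to 0.104). Fads2 was higher by 0.44 (adjusted p = 0.0279), also with overlap. Its call ended without replicate 1 or 3 of wild-type untreated (0.107 and 0.0614), without replicate 2 or 3 of labelled knockout untreated (0.129 and 0.128) and with no filter (0.0589, in a range of 4.71e-08 to 0.129).

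Tm7sf2 was lower in labelled knockout, with a difference of -0.45 (adjusted p = 0.0191), and -0.33 under TMM scaling, where it was not called (adjusted p = 0.0723). Its call was also lost in quantile normalization, where the difference was -0.30, in edgeR and DESeq2, and without replicate 3 of wild-type untreated (0.0654) or replicate 2 of labelled knockout untreated (0.0898), in a range of 0.000221 to 0.0952 over 25 alternatives. Srebf1, at 139 ± 4.76 against 124 ± 5.68 CPM (SD, n = 3), differed by -0.16 (adjusted p = 0.0448). It kept its call in 9 of 25 alternatives (adjusted p from 0.000507 to 0.875). Leaving out any 1 of the wild-type untreated or labelled knockout PDGF-BB libraries, replicate 2 or 3 of labelled knockout untreated, or treated wild-type replicate 2 ended the call (0.0575 to 0.168). The difference was -0.03 under TMM scaling, -0.09 in quantile normalization, -0.03 in edgeR and -0.02 in DESeq2.

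With PDGF-BB, 18 of 37 genes were higher in labelled knockout and 1 was lower, against 10.6% and 26.6% of all genes tested, and the median difference was 0.37 beside -0.14 over all genes. Under TMM scaling 23 were higher and 1 lower, with medians of 0.48 and -0.05, and the higher share of all calls went from 28.5% to 47.4%. Without both libraries that stand apart, 26 were higher and 2 lower, with the share of all genes under that setting not given here. Leaving out treated wild-type replicate 1 moved the median to 0.33. The genotype comparisons with and without PDGF-BB, and the responses in each genotype, share groups, so their values stand side by side and are not independent of each other.

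**Figure D5:**
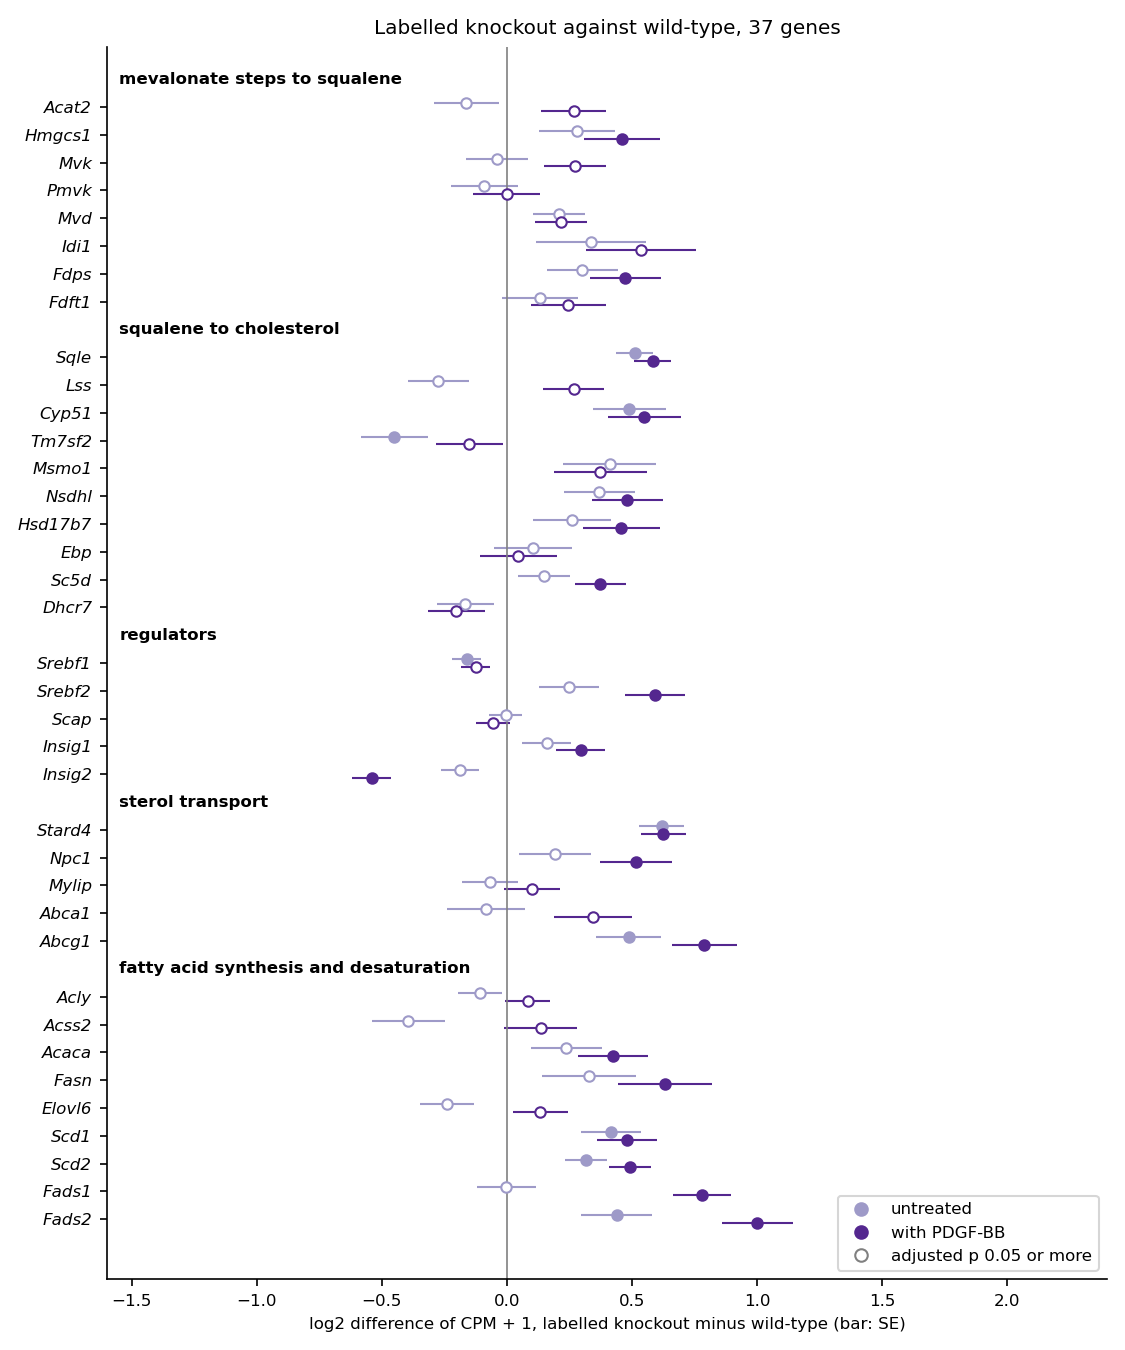
Difference of labelled knockout from wild-type for each of the 37 genes in 5 role groups, as log2 difference of CPM + 1 (horizontal axis) with the standard error of the fit as bar, untreated in light and with PDGF-BB in dark purple, n = 3 libraries per group. Filled points have an adjusted p under 0.05: most dark points of the fatty acid group are filled and lie to the right of 0, and Insig2 is the only filled dark point to the left.

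With PDGF-BB the desaturases Fads2 and Fads1 were higher in labelled knockout by 1.00 ± 0.14 (SE, adjusted p = 0.000117) and 0.78 ± 0.12 (adjusted p = 0.000205) on the log2 scale. Fads2 was between 23.6 and 27.8 CPM in wild-type and between 50.7 and 54.4 in labelled knockout. Scd1 and Scd2 were higher by 0.48 and 0.49. Fasn was higher by 0.63 (adjusted p = 0.0185), and by 0.32 without treated wild-type replicate 1, with the call kept. Its call was lost without treated labelled knockout replicate 1 or 3 (0.0508 and 0.0556), with no filter (0.0503) and with the compared groups alone (0.0916), in a range of 1.6e-09 to 0.0916. Acaca was higher by 0.43 (adjusted p = 0.0303), and by 0.20 without treated wild-type replicate 1. It lost its call without any 1 of the labelled knockout PDGF-BB libraries (0.0669 to 0.0804), with no filter (0.0726) and with the compared groups alone (0.112), in a range of 5.83e-07 to 0.112.

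Of the sterol synthesis enzymes, 7 of 18 were higher in labelled knockout with PDGF-BB and none was lower, against 10.6% and 26.6% of all genes. Sqle, at 160.2, 142 and 137 CPM in wild-type and 219, 211 and 228 in labelled knockout, differed by 0.58 ± 0.07 (SE, adjusted p = 4.22e-05). Cyp51 differed by 0.55 (adjusted p = 0.0109), Nsdhl by 0.48 (adjusted p = 0.0173) and Sc5d by 0.37 (adjusted p = 0.0128). Nsdhl lost its call without treated labelled knockout replicate 2 (0.0537, the highest of a range from 4.28e-05 over 25 alternatives). Idi1, at 39.4 ± 2.06 against 57.6 ± 2.55 CPM (SD, n = 3), had groups that did not overlap but was not called (adjusted p = 0.0708).

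The calls of Fdps, Hmgcs1 and Hsd17b7 were lost when some single libraries were left out, which also leaves fewer libraries to test with. Fdps was higher by 0.47 (adjusted p = 0.0188) and was no longer called without treated wild-type replicate 2 (0.0597), without replicate 1 of treated labelled knockout (0.0681) or when unfiltered (0.0858, in a range from 4.97e-07). Hmgcs1 was higher by 0.46 (adjusted p = 0.0301). Its call was lost without treated wild-type replicate 2 or 3 (0.0794 and 0.0776), without any 1 of the labelled knockout PDGF-BB libraries (0.0581 to 0.0858), with no filter (0.0734) and with a replicate block (0.0515), in a range of 1.58e-09 to 0.0858. Hsd17b7 was higher by 0.46 (adjusted p = 0.0339), and was no longer called without treated wild-type replicate 1 or 2 (0.0581 and 0.0525), without any 1 of the labelled knockout PDGF-BB libraries (0.0663 to 0.0979) and with no filter (0.0787), in a range of 1.12e-06 to 0.0979.

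Among the regulators, Srebf2 was higher in labelled knockout with PDGF-BB by 0.59 ± 0.12 (SE, adjusted p = 0.00212) and Insig2 was lower, with a difference of -0.54 ± 0.08 (adjusted p = 0.000131). Both kept their calls in all 25 alternatives. Insig1 was higher by 0.30 (adjusted p = 0.0308), at 94.3 ± 4.63 against 116 ± 0.209 CPM (SD, n = 3). Its call was lost without treated wild-type replicate 2 or 3 (0.0595 and 0.0688), without any 1 of the labelled knockout PDGF-BB libraries (0.0764 to 0.0785) and with no filter (0.0634), in a range of 4.49e-07 to 0.0785. Srebf1 and Scap were not called.

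In sterol transport, Abcg1 was higher in labelled knockout with PDGF-BB by 0.79 ± 0.13 (SE, adjusted p = 0.000455), and by 1.20 in edgeR and 1.23 in DESeq2 on recovered reads. Stard4 was higher by 0.63 ± 0.09 (adjusted p = 0.000155). Npc1 was higher by 0.52 (adjusted p = 0.0132), by 0.28 without treated wild-type replicate 1, and not called when only the compared groups were fitted (adjusted p = 0.0813, in a range from 9.44e-09). Abca1, at 236 ± 67.3 against 291 ± 8.43 CPM (SD, n = 3), and Mylip, at 26.2 ± 2.20 against 28.1 ± 0.427 CPM, were not called.

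Endothelial markers and most macrophage markers moved with the genotype label beside these differences. All 5 endothelial markers were kept, and their summed CPM ran from 75.4 to 82.3 in wild-type untreated, from 509 to 569 in labelled knockout untreated, from 60.2 to 65.1 in wild-type with PDGF-BB and from 481 to 493 in labelled knockout with PDGF-BB. Pecam1 reached 264 CPM and Cdh5 195. The 5 macrophage markers summed to between 118 and 127 CPM in wild-type untreated, 27.3 and 32.5 in labelled knockout untreated, 90.7 and 127 in wild-type with PDGF-BB and 27.7 and 31.0 in labelled knockout with PDGF-BB. The 5 fibroblast markers summed to between 107 and 123 CPM, 85.8 and 127, 74.8 and 84.8, and 46.7 and 50.9 in the same order, but they did not move as one. Pdgfra, at 34.2 to 112 CPM, differed by -0.92 with PDGF-BB (limma-trend, adjusted p = 0.000318) and was not called untreated (adjusted p = 0.15). Pi16 was higher in labelled knockout, by 0.57 untreated and 0.72 with PDGF-BB. Dcn and Dpt were not called in either comparison, and Lum did not pass the filter. Fabp4, an adipocyte marker that endothelial cells also express, was higher in labelled knockout by 1.00 untreated (adjusted p = 0.00588) and 0.77 with PDGF-BB (adjusted p = 0.023). The part of these cells in the differences of the sterol and fatty acid genes was not tested.

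The response to PDGF-BB differed between the genotype labels for 1 of the 37 genes by the interaction term, with none in the other direction. The shares of all genes tested were 2.25% and 1.68%, so this count was near that of genes at large. The median over the 37 genes was 0.18, and over all genes 0.01. It was 0.09 without replicate 1 of labelled knockout untreated, 0.08 without both libraries that stand apart and 0.07 with library weights, and the spread of the median between replicates was 0.154. Under TMM scaling the counts were the same, while the higher share of all calls went from 57.3% to 46.7%. The gene was Fads1, whose response was 0.78 ± 0.17 higher in labelled knockout on the log2 scale (SE, adjusted p = 0.019). Its call was lost without replicate 1 or 2 of wild-type untreated (0.0568 and 0.0504) and without treated labelled knockout replicate 1, 2 or 3 (0.0569, 0.0561 and 0.0501), so that 19 of 24 alternatives kept it (adjusted p from 1.29e-05 to 0.0569). The count was 2 without treated wild-type replicate 1, where 1 gene was also lower, and 6 higher and 2 lower without both libraries that stand apart. Of those libraries, replicate 1 of labelled knockout untreated was set apart by the values of these same genes. For Insig2 (adjusted p = 0.0927) and Lss (adjusted p = 0.101) the difference between responses missed the threshold, which does not show that the responses were alike.

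Further genes of sterol control followed their own course. Of 9 genes of sterol sensing, 2 rose and 6 fell in wild-type and 1 rose and 5 fell in labelled knockout, where all genes tested had shares of 25.0% and 34.4%, and of 17.6% and 24.8%. Nr1h3, the liver X receptor alpha gene, fell from 6.08 ± 0.350 to 3.65 ± 0.449 CPM (SD, n = 3) in wild-type and from 5.80 ± 0.215 to 3.17 ± 0.345 CPM in labelled knockout, with log2 changes of -0.61 and -0.71. Mbtps1, the protease that makes the first cut of SREBP precursors, changed by -0.42 and -0.34. Erlin1, an endoplasmic reticulum protein of sterol-regulated degradation, rose by 0.56 and 0.59. Its difference of labelled knockout from wild-type was -0.61 untreated and -0.59 with PDGF-BB. In the untreated comparison none of the 9 genes was higher and 4 were lower, and with PDGF-BB none was higher and 2 were lower, beside 9.15% and 24.8%, and 10.6% and 26.6%, of all genes.

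Of 16 genes of isoprenoid branches and partners of sterol enzymes, 9 rose and none fell in wild-type, and 7 rose and none fell in labelled knockout, beside the same shares of all genes as above. Tmem97, a sterol-binding membrane protein, rose from 5.86 ± 0.846 to 20.5 ± 3.90 CPM (SD, n = 3) in wild-type and from 8.87 ± 1.91 to 23.1 ± 1.96 CPM in labelled knockout, with log2 changes of 1.64 and 1.30. Por, the electron donor of Cyp51 and Sqle, rose by 1.35 and 1.12, Aacs, which makes acetoacetyl-CoA from ketone bodies, by 1.23 and 1.29, and the cytochrome b5 gene Cyb5b by 1.14 and 0.74. Between genotype labels, 3 of the 16 were higher and 3 lower untreated, and with PDGF-BB none was higher and 5 were lower, among them the prenyltransferase subunit Fnta at -0.59. The shares of all genes were 9.15% and 24.8% untreated and 10.6% and 26.6% with PDGF-BB, so the lower counts were near those of genes at large.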

How the data were processed

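Poly(A) RNA of 12 libraries was sequenced from stranded libraries, per the labels' protocols. HISAT2, HTSeq and mm10 are named per the submitters' processing notes, without versions, and the deposited table's header names GRCm38.p6. The strand setting of the counting is not given in the sources used here. The authors deposited 1 table that is named for FPKM but holds CPM: each column sums to 1000000, and 100% of values are whole reads within 0.01 read. The design had assumed a normalized unit of unstated kind. Exon lengths in the deposited table served for levels per kb, for the split by length and for the rank correlations with length. The exonic bases of the reference annotation were used instead as an alternative chosen after seeing the data. No value column was left without a sample (0 columns).

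The 37 members and all gene lists were chosen with earlier results of these data known. All 37 are accounted for. Values in every library are given for up to 3 genes of largest change per role and comparison, for named regulators and efflux genes, and for genes called in the interaction. From each other list, up to 4 called genes of largest change per comparison could be named.

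Genes with at least 1 CPM in at least 3 libraries (14202) were tested on log2(CPM + 1) with limma-trend (limma 3.58.1, R 4.3.3), 1 fit over all 4 groups, with Benjamini-Hochberg adjustment over all genes tested and a threshold of 0.05. Fold changes on this scale understate those of low genes. The method was tested on simulated data with known changes. For PDGF-BB in wild-type it called 62.7% of 1.5-fold and 95% of 4-fold changes, with 10 false calls among 168. For the interaction it called 32.5% and 92.7%, with 5 false calls among 128. The simulation changed few genes and held no library that stood apart, unlike these data. On recovered reads edgeR 4.0.16 called 4312 genes higher and 4102 lower with PDGF-BB in wild-type, 2951 and 3079 in labelled knockout, 1943 and 1993 between untreated genotypes, 1896 and 2246 between treated genotypes, and 228 and 268 in the interaction. DESeq2 1.42.0, other scalings, filters, pseudocounts, library weights, a replicate block and leaving out each library were alternatives. Overlaps and near-identical copies came from the reference annotation and blastn 2.17.0. Promoters came from a RefSeq table on GRCm38.p6.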

Additional observations from a re-analysis of the deposited data

Results flagged for a closer look

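The response to PDGF-BB differed between the genotype labels for 3 of the genes named here, by the interaction term of limma-trend with Benjamini-Hochberg adjustment. They were 1 of the 37 genes, 1 of 12 genes of cholesterol uptake, storage and traffic and 1 of 25 of fatty acid supply and use. None of the 9 genes of sterol sensing or the 16 of isoprenoid branches was called. Of all genes tested, 2.25% had a higher response in labelled knockout and 1.68% a lower one. Taken over all these lists, the number called was thus near that of genes at large. The response of Fads1, the delta-5 desaturase, was 0.78 higher in labelled knockout on the log2 scale (adjusted p = 0.019). That of Lipa, the lysosomal acid lipase, was 0.44 ± 0.09 higher (SE, adjusted p = 0.0169). Lipa fell from 85.2 ± 1.38 to 55.1 ± 3.67 CPM (SD, n = 3) in wild-type, a log2 change of -0.62. It was at 71.7 ± 2.05 CPM in labelled knockout with PDGF-BB. The response of Elovl7, a fatty acid elongase, differed by -0.70 ± 0.17 (SE, adjusted p = 0.0366). Elovl7 rose from 7.42 ± 0.719 to 22.8 ± 1.29 CPM in wild-type and from 3.45 ± 0.435 to 6.80 ± 0.905 CPM in labelled knockout. The Elovl7 call was kept in 11 of 24 alternatives, with adjusted p up to 0.103, and that of Lipa in 22 of 24, with adjusted p up to 0.0605. The Fads1 call was kept in 19 of 24, with adjusted p up to 0.0569. Markers of endothelial cells and macrophages also differ between the genotype labels, and their part in these results was not tested.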

How the results depend on the processing

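The 91 called results on the 37 genes were recomputed under 25 alternatives. Leaving out both libraries that stand apart was chosen after seeing the data, in part by the values of these same 37 genes. Of 2269 values, 2176 kept direction and call, 93 kept direction and lost the call, and 0 changed direction. The counts of the 37 genes below are not set beside shares of all genes under the same alternatives. With library weights, whose fit did not reach its convergence tolerance, 7 genes fell in wild-type and 5 in labelled knockout, 21 were higher and 5 lower in labelled knockout untreated, 28 and 4 with PDGF-BB, and 10 and 1 in the interaction. With the compared groups only, which cannot be run for the interaction, 5 fell in labelled knockout and 11 were higher and 4 lower untreated. Untreated counts higher and lower were 12 and 0 under TMM, 13 and 0 in edgeR, 16 and 0 in DESeq2, 22 and 5 without both libraries, and lower counts were 0 under quantile normalization and 1 with no filter and with a replicate block. Without both libraries, 2 were lower with PDGF-BB, and 6 were higher and 2 lower in the interaction, where DESeq2 gave 1 lower.

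The wild-type median was 0.77 under TMM, 0.62 under quantile normalization, 0.77 with weights, 0.84 in edgeR and 0.82 in DESeq2. The untreated genotype median was 0.31 in edgeR and 0.33 in DESeq2. The treated genotype median was 0.48 under TMM, 0.45 under quantile normalization, 0.32 with weights, 0.47 in edgeR, 0.49 in DESeq2 and 0.33 without both libraries. The interaction median was 0.07 with weights and 0.08 without both libraries, and 0.09 to 0.23 when 1 library was left out. Leaving out 1 library at a time gave 0.60 to 0.70 for the wild-type median, 0.33 to 0.41 for the treated genotype median, 2 to 5 fallen genes in labelled knockout, 3 to 16 higher and 0 to 6 lower untreated, and 0 to 2 higher and 0 to 1 lower in the interaction. The causes were not tested. Same-numbered libraries correlated at -0.23 to 0.18 in their deviations, so the numbers were not taken as pairs. With a replicate block 26 genes rose and 4 fell in wild-type, 29 and 3 in labelled knockout, 7 were higher and 1 lower untreated, and 17 and 1 with PDGF-BB. With 3 libraries a group and a read worth up to 0.0669 CPM, low genes such as Fdps and Abcg1 carry the widest counting error.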

Other observations

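Of 12 genes of cholesterol uptake, storage and traffic, 2 rose and 5 fell with PDGF-BB in wild-type, and 3 rose and 4 fell in labelled knockout. Of all genes tested, 25.0% rose and 34.4% fell in wild-type and 17.6% and 24.8% in labelled knockout, so these counts were near those of genes at large. Vldlr, a lipoprotein receptor, fell from 426 ± 7.76 to 190 ± 29.7 CPM (SD, n = 3) in wild-type and from 132 ± 11.3 to 76.8 ± 1.70 CPM in labelled knockout. Its difference of labelled knockout from wild-type was -1.69 untreated and -1.29 with PDGF-BB on the log2 scale (adjusted p = 4.94e-08 and 4.39e-07, limma-trend with Benjamini-Hochberg adjustment). Cyp27a1, which makes 27-hydroxycholesterol, fell from 5.24 ± 0.850 to 1.75 ± 0.280 CPM in wild-type. In labelled knockout Cyp27a1 fell from 2.24 ± 0.344 to 1.33 ± 0.409 CPM (adjusted p = 0.0222), a call kept in 19 of 24 alternatives. Its difference of labelled knockout from wild-type was -0.94 untreated (adjusted p = 0.000397). Scarb1, a receptor for high-density lipoprotein, rose from 24.6 ± 2.89 to 40.1 ± 0.466 CPM in labelled knockout. Between genotype labels, 1 of the 12 was higher and 5 lower untreated, and 2 were higher and 1 lower with PDGF-BB, where the shares of all genes were 9.15% and 24.8%, and 10.6% and 26.6%.

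Of 25 genes of fatty acid supply and use, 11 rose and 6 fell with PDGF-BB in wild-type, and 10 rose and 6 fell in labelled knockout. Among all genes tested, 25.0% rose and 34.4% fell in wild-type, and 17.6% and 24.8% in labelled knockout. Acacb, the carboxylase of the mitochondrial surface whose product restrains fatty acid oxidation, fell from 13.3 ± 1.48 to 3.28 ± 0.663 CPM (SD, n = 3) in wild-type and from 12.9 ± 2.87 to 4.77 ± 0.216 CPM in labelled knockout. Hsd17b12, a reductase of fatty acid elongation, rose from 37.4 ± 2.82 to 87.1 ± 9.87 CPM in wild-type, with log2 changes of 1.20 there and 1.04 in labelled knockout. Cpt1a, which admits fatty acids to mitochondria, fell from 179 ± 6.75 to 103 ± 4.26 CPM in labelled knockout. Untreated, 6 of the 25 were higher and 6 lower in labelled knockout, and with PDGF-BB 4 were higher and 3 lower. The shares of all genes were 9.15% and 24.8% untreated and 10.6% and 26.6% with PDGF-BB. The lower count untreated was thus near that of genes at large.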
